A study of Mus musculus with 5 samples.

Results

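Genes of sterol and fatty acid synthesis were examined in natural helper cells of the mouse lung, innate lymphocytes now also called group 2 innate lymphoid cells. The 41 genes were taken by name and sorted by role into mevalonate and sterol steps (18 genes), 1 sterol carrier, fatty acid steps (12), control of the transcription factor SREBP (5), and the nuclear receptor LXR with its targets (5). A probe set annotated to a single symbol was found for 38 of them, out of 19938 genes measured in this way. Acat2 and Nr1h2 are not analysed here, and neither is Acsl3, whose probe set it shares with Utp14b.

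Flow cytometry had isolated them from the lungs of naive C57Bl/6 animals, 6 to 8 weeks old, by a gate for lineage-negative cells positive for Sca-1, CD127 and CD25 with absent or low c-Kit. In the PMA and ionomycin group, 2 samples spent 3 days in culture (200 microlitres, 10% FCS) with PMA at 60 ng/ml and ionomycin at 500 ng/ml. PMA stands in for diacylglycerol and switches on protein kinase C, while ionomycin lets calcium into the cell. In the unstimulated group, RNA of 3 samples was extracted straight after the sort, so culture and stimulation cannot be told apart. The labels do not say whether samples came from separate mice, pools or cultures, and the spread behind each p-value is that between these samples, which could be technical.

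Cells make cholesterol from acetyl-CoA through mevalonate, isoprenoid diphosphates and squalene, and make fatty acids from the same acetyl-CoA through malonyl-CoA. SREBP proteins are held in the endoplasmic reticulum by INSIG and SCAP while sterols are plentiful, and are cut and sent to the nucleus when sterols are scarce, where they switch on genes of both pathways. For cholesterol, LXR receptors work in the other direction: oxidised sterols activate them, and targets such as those listed here export cholesterol or limit its uptake. Dividing lymphocytes are known to raise lipid synthesis to build membranes.

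Promoter sequences are shown for the genes on which the comparison turns: 5 sterol genes that rose, the fatty acid gene Elovl5, which fell, and Mvk, whose level moved little. They come from RefSeq on build GRCm38.p6, run 5′ to 3′ on the gene's strand from 250 bases before to 50 bases after the start site, and were available for 33 of the 41 genes (43 windows, since some genes have several starts). Entries for Fdft1, Sqle, Fdps, Scd1, Scd2, Fads1, Abcg1 and Stard4 were not used here. Capitals mark matches, on either strand, to an SRE-type element (TCACNCCAC, where N is any base), the CCAAT box bound by NF-Y, the E-box CACGTG and the GC box GGGCGG.
Hmgcs1 promoter (chr13:119690101-119690400, plus strand): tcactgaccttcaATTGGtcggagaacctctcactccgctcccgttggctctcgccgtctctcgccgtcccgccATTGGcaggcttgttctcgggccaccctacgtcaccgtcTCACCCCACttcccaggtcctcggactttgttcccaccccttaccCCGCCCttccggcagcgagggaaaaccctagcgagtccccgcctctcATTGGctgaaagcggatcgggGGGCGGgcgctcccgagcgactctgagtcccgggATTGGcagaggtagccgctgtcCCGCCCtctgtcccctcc
Idi1 promoter (chr13:8885356-8885655, plus strand): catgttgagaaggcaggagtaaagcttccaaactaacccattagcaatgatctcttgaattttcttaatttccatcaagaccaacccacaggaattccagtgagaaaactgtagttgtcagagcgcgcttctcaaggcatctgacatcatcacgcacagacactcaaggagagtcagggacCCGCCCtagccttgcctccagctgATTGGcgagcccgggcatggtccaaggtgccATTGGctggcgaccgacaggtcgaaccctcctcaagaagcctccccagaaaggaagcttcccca
Idi2 promoter (chr13:8952613-8952912, plus strand): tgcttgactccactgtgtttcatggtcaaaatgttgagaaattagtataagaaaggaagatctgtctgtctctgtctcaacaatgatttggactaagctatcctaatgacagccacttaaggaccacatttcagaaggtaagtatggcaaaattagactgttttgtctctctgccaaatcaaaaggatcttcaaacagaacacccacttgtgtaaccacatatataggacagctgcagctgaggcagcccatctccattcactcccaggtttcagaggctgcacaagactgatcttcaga
Cyp51 promoter (chr5:4104648-4104947, minus strand): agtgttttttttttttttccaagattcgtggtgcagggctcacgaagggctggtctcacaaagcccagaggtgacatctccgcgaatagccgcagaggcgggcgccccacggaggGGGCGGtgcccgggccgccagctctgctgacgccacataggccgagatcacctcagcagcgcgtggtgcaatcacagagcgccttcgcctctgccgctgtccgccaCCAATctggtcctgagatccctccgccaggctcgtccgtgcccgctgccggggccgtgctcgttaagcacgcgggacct
Hsd17b7 promoter (chr1:169969156-169969455, minus strand): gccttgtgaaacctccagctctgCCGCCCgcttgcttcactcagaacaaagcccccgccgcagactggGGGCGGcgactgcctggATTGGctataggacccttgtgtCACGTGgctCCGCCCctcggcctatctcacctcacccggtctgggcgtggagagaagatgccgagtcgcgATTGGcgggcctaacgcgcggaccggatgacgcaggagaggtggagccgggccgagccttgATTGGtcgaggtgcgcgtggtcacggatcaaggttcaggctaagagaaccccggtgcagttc
Elovl5 promoter (chr9:77917115-77917414, plus strand): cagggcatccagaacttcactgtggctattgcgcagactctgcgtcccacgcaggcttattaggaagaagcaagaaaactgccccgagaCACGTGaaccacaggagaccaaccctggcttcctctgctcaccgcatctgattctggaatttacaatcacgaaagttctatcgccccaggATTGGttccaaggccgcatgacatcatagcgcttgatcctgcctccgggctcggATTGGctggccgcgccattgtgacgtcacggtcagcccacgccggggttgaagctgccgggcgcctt
Mvk promoter (chr5:114444019-114444318, plus strand): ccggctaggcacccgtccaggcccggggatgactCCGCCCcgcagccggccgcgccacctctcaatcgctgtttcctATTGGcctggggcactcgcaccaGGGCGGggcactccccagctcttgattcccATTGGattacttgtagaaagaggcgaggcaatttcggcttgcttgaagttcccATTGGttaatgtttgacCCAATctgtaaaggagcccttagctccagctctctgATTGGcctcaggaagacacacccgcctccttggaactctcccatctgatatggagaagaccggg

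Only Hmgcs1, among the 43 windows, held an exact match to the SRE-type letters searched (2.33% of windows, against 1.24% of 32851 promoters of the same length). Its match began 137 bases before the start site. The CCAAT box was in 24 of the 43 windows (55.8%, against 37.4% of all promoters). Among the mevalonate and sterol genes it was in 13 of 18 windows, which belong to 13 of the 15 genes that had a window. The GC box was in 29 windows (67.4%, against 35.7% of all promoters and 49.2% of those of the genes measured here), and the E-box was in 7 (16.3%, against 7.15%). The Mvk window held 5 CCAAT boxes and 2 GC boxes, the Idi1 window 2 and 1, and the Idi2 window no match to any of the 4 motifs. These matches describe the letters of these windows. Some windows of the same gene overlap. Other forms of each element were not searched, so a window without a match may still hold the element, and says nothing about binding elsewhere.

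Of the 17 mevalonate and sterol genes measured, 5 rose after PMA and ionomycin (Hmgcs1, Idi1, Idi2, Cyp51 and Hsd17b7) and none fell, by limma with a Benjamini-Hochberg adjusted p under 0.05 over all 19938 genes, where 0.737% were called higher and 0.963% lower. The median difference of the 17 was 1.06 on the log2 scale, against 0.00 over all genes, and single differences were very unequal along the pathway, from 0.02 for Mvk to 3.68 for Idi2. Both stimulated arrays stood above all 3 unstimulated arrays for 14 of the 17, against 18.6% of all genes. The gap was only 0.02 for Mvd and for Tm7sf2, which are among the 14. Of the 17 genes, 9 differed by 2-fold or more upwards, against 2.23% of all genes. At an unadjusted p under 0.05, 12 were higher, against 11.3% of all genes.

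**Figure D1:**
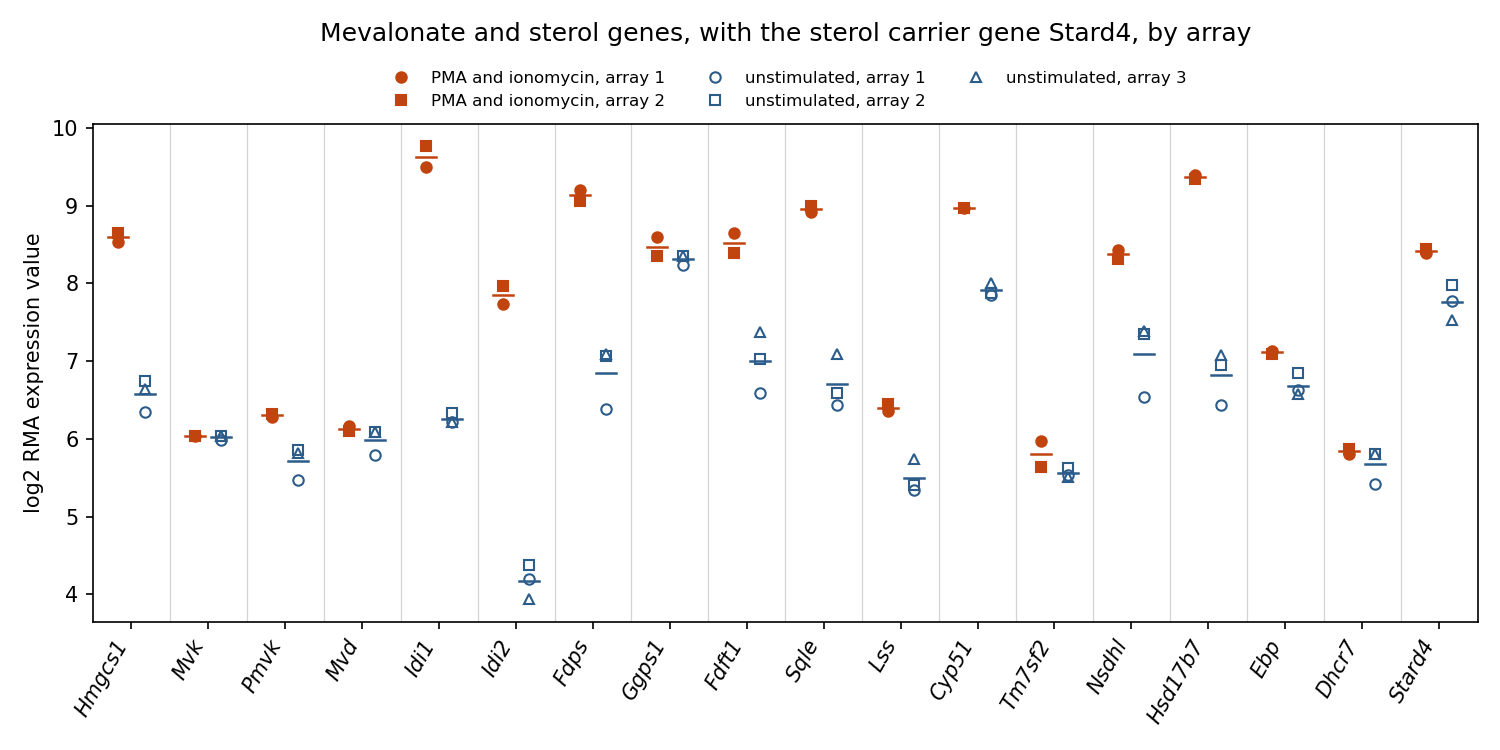
Log2 RMA expression value of each measured mevalonate and sterol gene in pathway order, with the carrier gene Stard4, for 2 PMA and ionomycin arrays (filled) and 3 unstimulated arrays (open); short lines are group means. The groups lie far apart for Idi1, Idi2, Hsd17b7, Fdps, Sqle and Hmgcs1 and close together for Mvk, Mvd, Ggps1 and Dhcr7; levels of different genes are not comparable, since each probe set has its own response.

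At the entry of the pathway, Hmgcs1, which codes for the cytosolic HMG-CoA synthase, read 8.54 and 8.65 on the stimulated arrays and 6.35, 6.74 and 6.64 on the unstimulated ones. It rose 4.05-fold (2.02 ± 0.15 SE on the log2 scale, adjusted p = 0.0359). The 3 enzymes that follow, which add phosphates to mevalonate and remove its carboxyl group, moved far less. Mvk, the mevalonate kinase gene, read 6.04 on both stimulated arrays and 5.99, 6.03 and 6.04 on the unstimulated arrays. The 95% interval of its difference ran from -0.04 to 0.09. The value of Mvk was the same, to 5 decimals, on both stimulated arrays and unstimulated array 3. The part of this repeat in the small difference and narrow interval was not tested. The phosphomevalonate kinase gene Pmvk differed by 0.59 ± 0.15 SE (adjusted p = 0.154) and the decarboxylase gene Mvd by 0.14 ± 0.12 (adjusted p = 0.513). Neither passed the test, although the groups did not overlap for either gene. For Mvd the gap was only 0.02, and its value was the same on unstimulated arrays 2 and 3.

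The isopentenyl diphosphate isomerase genes, whose product converts the basic isoprene unit into its reactive isomer, had the largest differences of the 38 genes. Idi1 read 9.50 and 9.76 on the stimulated arrays, against 6.22, 6.34 and 6.22 on the unstimulated arrays, a 10.3-fold rise (3.37 ± 0.10 SE, adjusted p = 0.0170). Idi2 read 7.73 and 7.96 on the stimulated arrays, against 4.20, 4.37 and 3.94 on the unstimulated arrays, a 12.8-fold rise (3.68 ± 0.17 SE, adjusted p = 0.0229). For both genes the gap between groups was many times the gap between arrays of one group. The 3 unstimulated values of Idi2 were below 4.49, the lower quartile over all probe sets. A second probe set gave 3.48 for Idi1 and 2.92 for Idi2. The genes are neighbours on chromosome 13, with no protein-coding gene between them. They code for closely related proteins, and since no probe sequences were at hand, signal shared between their probe sets cannot be told apart from a rise in both.

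Further along, Fdps, whose product makes farnesyl diphosphate, read 9.21 and 9.06 on the stimulated arrays and 6.39, 7.06 and 7.09 on the unstimulated arrays, a difference of 2.29 ± 0.27 SE that missed the threshold (adjusted p = 0.0605). Ggps1, which sends farnesyl diphosphate towards protein prenylation, differed by 0.16 ± 0.09 (adjusted p = 0.472, 95% interval from -0.11 to 0.43). The differences of Fdps and Ggps1, on either side of this branch point, were very unequal in size. Ggps1 read 8.59 and 8.35 on the stimulated arrays and 8.23, 8.35 and 8.35 on the unstimulated arrays. Its value of 8.35 was exactly the same on arrays of both groups. The part of this repeat in the small difference of Ggps1, and so in the contrast with Fdps, was not tested. Fdft1, the squalene synthase gene that commits the chain to sterols, differed by 1.52 ± 0.28 (adjusted p = 0.101), and its second probe set gave 1.58. Sqle, which codes for squalene epoxidase, read 8.92 and 8.998 on the stimulated arrays and 6.44, 6.59 and 7.09 on the unstimulated arrays (2.25 ± 0.23 SE, adjusted p = 0.0512). The cyclising enzyme gene Lss differed by 0.91 ± 0.15 (adjusted p = 0.0854). For Fdps, Fdft1, Sqle and Lss both stimulated arrays stood above every unstimulated array.

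Among the enzymes that trim lanosterol into cholesterol, Cyp51 and Hsd17b7 rose. Cyp51, the lanosterol demethylase gene, read 8.97 and 8.98 on the stimulated arrays, against 7.85, 7.88 and 8.00 on the unstimulated arrays, and rose 2.09-fold (1.06 ± 0.06 SE, adjusted p = 0.0270). Hsd17b7, whose product reduces the sterol ketone, read 9.40 and 9.34 on the stimulated arrays, against 6.43, 6.95 and 7.08 on the unstimulated arrays, and rose 5.85-fold (2.55 ± 0.23 SE, adjusted p = 0.0456). The groups were well apart in both. The dehydrogenase gene Nsdhl, which acts with it, differed by 1.28 ± 0.32 (adjusted p = 0.154), with unstimulated array 1 well below the other unstimulated arrays. The isomerase gene Ebp (0.43 ± 0.10, adjusted p = 0.141), the sterol reductase gene Tm7sf2 (0.25 ± 0.12, adjusted p = 0.397) and Dhcr7, for the last reductase (0.16 ± 0.15, adjusted p = 0.584), did not pass. Stard4, which codes for a protein that carries sterols between membranes, read 8.39 and 8.44 on the stimulated arrays and 7.77, 7.98 and 7.53 on the unstimulated arrays (0.65 ± 0.15 SE, adjusted p = 0.141).

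Of the 11 measured genes of fatty acid synthesis, 1 rose (Scd2) and 1 fell (Elovl5), against 0.737% and 0.963% of all genes. Differences were positive for 9 of the 11, with a median of 0.53, against 10534 positive differences among all 19938 genes. At an unadjusted p under 0.05, 8 were higher, against 11.3% of all genes. The groups did not overlap for 8 higher genes and 1 lower gene, against 18.6% and 14% of all genes. The 3 enzymes that lead from citrate to palmitate read higher in the stimulated cells without passing the test. Acly, which makes acetyl-CoA from citrate, read 7.81 and 8.22 on the stimulated arrays and 6.81, 7.11 and 7.01 on the unstimulated arrays (1.04 ± 0.17 SE, adjusted p = 0.0893). Acaca, the acetyl-CoA carboxylase gene of the rate-limiting step, read 7.80 and 7.78 on the stimulated arrays and 6.68, 6.82 and 6.98 on the unstimulated arrays (0.96 ± 0.10, adjusted p = 0.0526). Its second probe set gave 1.29. Fasn, the fatty acid synthase gene, differed by 0.63 ± 0.19 (adjusted p = 0.200). For all 3 genes both stimulated arrays stood above the 3 unstimulated arrays.

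The genes that elongate and desaturate fatty acids went separate ways. Elovl5, which codes for an elongase of polyunsaturated fatty acids, read 8.32 and 8.53 on the stimulated arrays and 10.09, 10.38 and 9.96 on the unstimulated arrays, and fell by 1.72 on the log2 scale (SE 0.16, adjusted p = 0.0482). Elovl1, for an elongase of very long saturated and monounsaturated chains, differed the other way by 1.26 ± 0.29 (adjusted p = 0.138), and Elovl6, which extends palmitate to stearate, by 0.53 ± 0.13 (adjusted p = 0.149). Elovl5 was thus the 1 elongase of these 3 with lower readings in stimulated cells. Scd2, a stearoyl-CoA desaturase gene, read 6.02 and 5.88 on the stimulated arrays, against 4.96, 5.08 and 5.17 on the unstimulated arrays, and rose 1.84-fold (0.88 ± 0.09 SE, adjusted p = 0.0492). Its relative Scd1 read 4.52 on both stimulated arrays and 4.53, 4.92 and 4.21 on the unstimulated arrays, with a 95% interval of the difference from -0.72 to 0.66. The readings of Scd1 lay near the lower quartile of all probe sets. The desaturase genes Fads1 (0.29 ± 0.09, adjusted p = 0.203) and Fads2 (0.06 ± 0.05, adjusted p = 0.518) and Acsl4, which activates polyunsaturated fatty acids for use (0.43 ± 0.09, adjusted p = 0.112), did not pass.

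**Figure D2:**
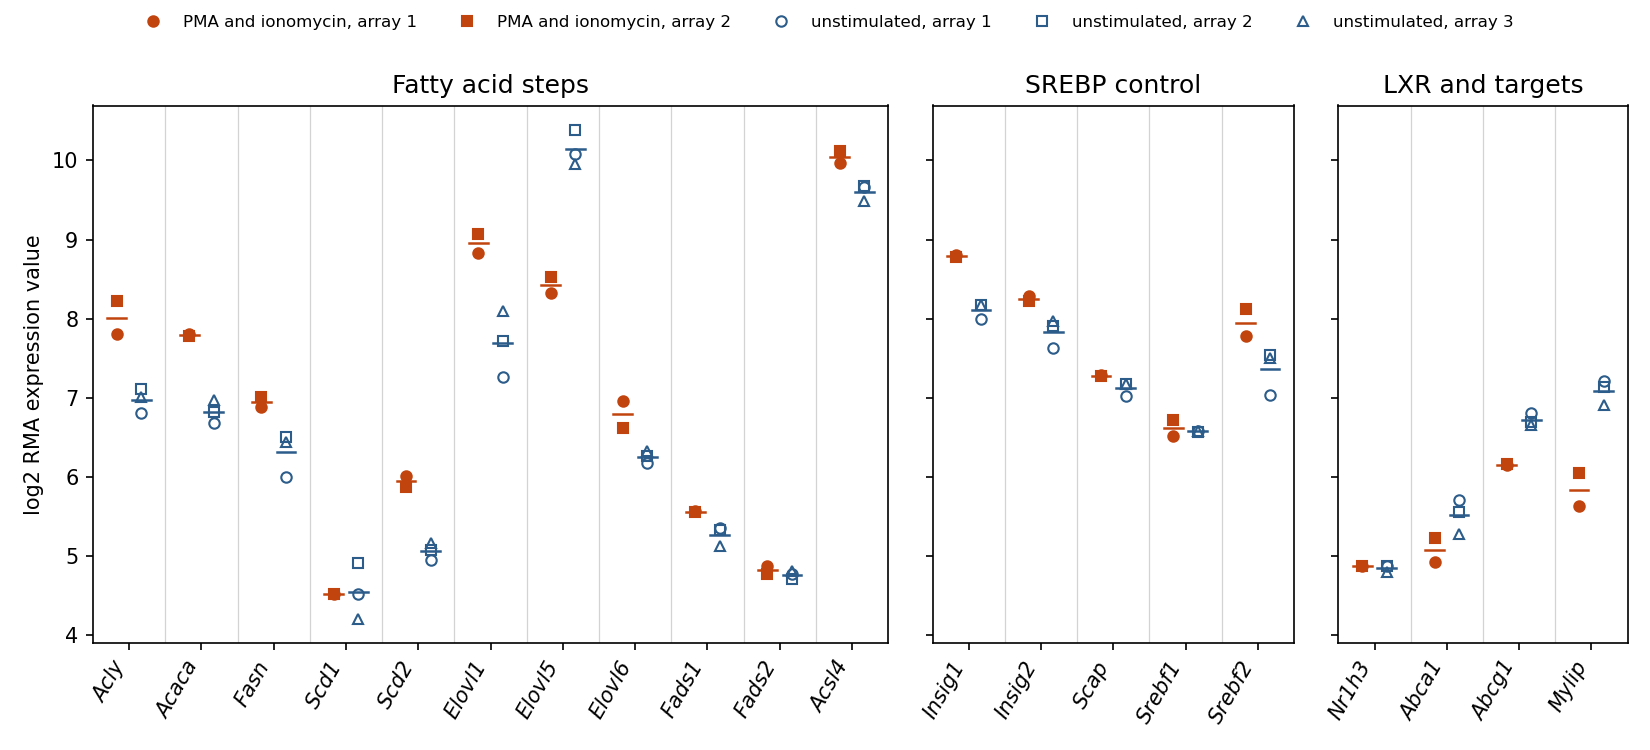
Log2 RMA expression value of the fatty acid, SREBP control and LXR genes for 2 PMA and ionomycin arrays (filled) and 3 unstimulated arrays (open); short lines are group means. Elovl5, Abcg1, Abca1 and Mylip are lower on both stimulated arrays, while Acly, Acaca, Scd2 and Elovl1 are higher on both.

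None of the 5 SREBP control genes passed the test, against 0.737% of all genes called higher and 0.963% lower. All 5 differences were positive, with a median of 0.42, against 10534 positive differences among all 19938 genes. Insig1, a retention factor that is itself a known SREBP target, read 8.81 and 8.78 on the stimulated arrays and 7.99, 8.17 and 8.18 on the unstimulated arrays (0.68 ± 0.07 SE, adjusted p = 0.0526). Insig2, its relative, differed by 0.42 ± 0.12 (adjusted p = 0.197). Srebf2, which codes for the SREBP that mainly serves sterol synthesis, read 7.78 and 8.12 on the stimulated arrays and 7.04, 7.54 and 7.50 on the unstimulated arrays (0.59 ± 0.22, adjusted p = 0.287). Srebf1, which codes for the SREBP that mainly serves fatty acid synthesis and is a known LXR target, differed by 0.04 ± 0.07 (adjusted p = 0.750, 95% interval from -0.17 to 0.25). Scap, the escort of SREBP, differed by 0.15 ± 0.06 (adjusted p = 0.298). Both stimulated arrays stood above every unstimulated array for 4 of the 5, all except Srebf1, against 18.6% of all genes. For Scap the gap was 0.10, and its value was the same on 2 unstimulated arrays.

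Of the 4 measured genes of LXR and its targets, 1 fell (Abcg1) and none rose, against 0.963% and 0.737% of all genes. Abcg1, which codes for a cholesterol exporter, read 6.15 and 6.17 on the stimulated arrays, against 6.81, 6.70 and 6.66 on the unstimulated arrays, and fell by 0.57 on the log2 scale (SE 0.05, adjusted p = 0.0479). Mylip, whose product marks lipoprotein receptors for degradation, read 5.63 and 6.05 on the stimulated arrays and 7.21, 7.14 and 6.92 on the unstimulated arrays (-1.25 ± 0.17 SE, adjusted p = 0.0712). In both genes the stimulated arrays lay below every unstimulated array. The exporter gene Abca1 read 4.93 and 5.24 on the stimulated arrays and 5.71, 5.56 and 5.28 on the unstimulated arrays (-0.43 ± 0.18, adjusted p = 0.326). Nr1h3, the gene of LXR alpha, read 4.88 on both stimulated arrays and 4.88, 4.88 and 4.80 on the unstimulated arrays (0.03 ± 0.03, adjusted p = 0.656). Of the 4 genes, 3 had groups that did not overlap downwards, against 14% of all genes, with a gap of 0.05 for Abca1, and the median difference was -0.50. At an unadjusted p under 0.05, 2 of the 4 were lower, against 8.58% of all genes, and 1 of the 4 was lower by 2-fold or more, against 2.73%. Fewer cells of a type and less RNA per cell cannot be told apart in such bulk samples.

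**Figure D3:**
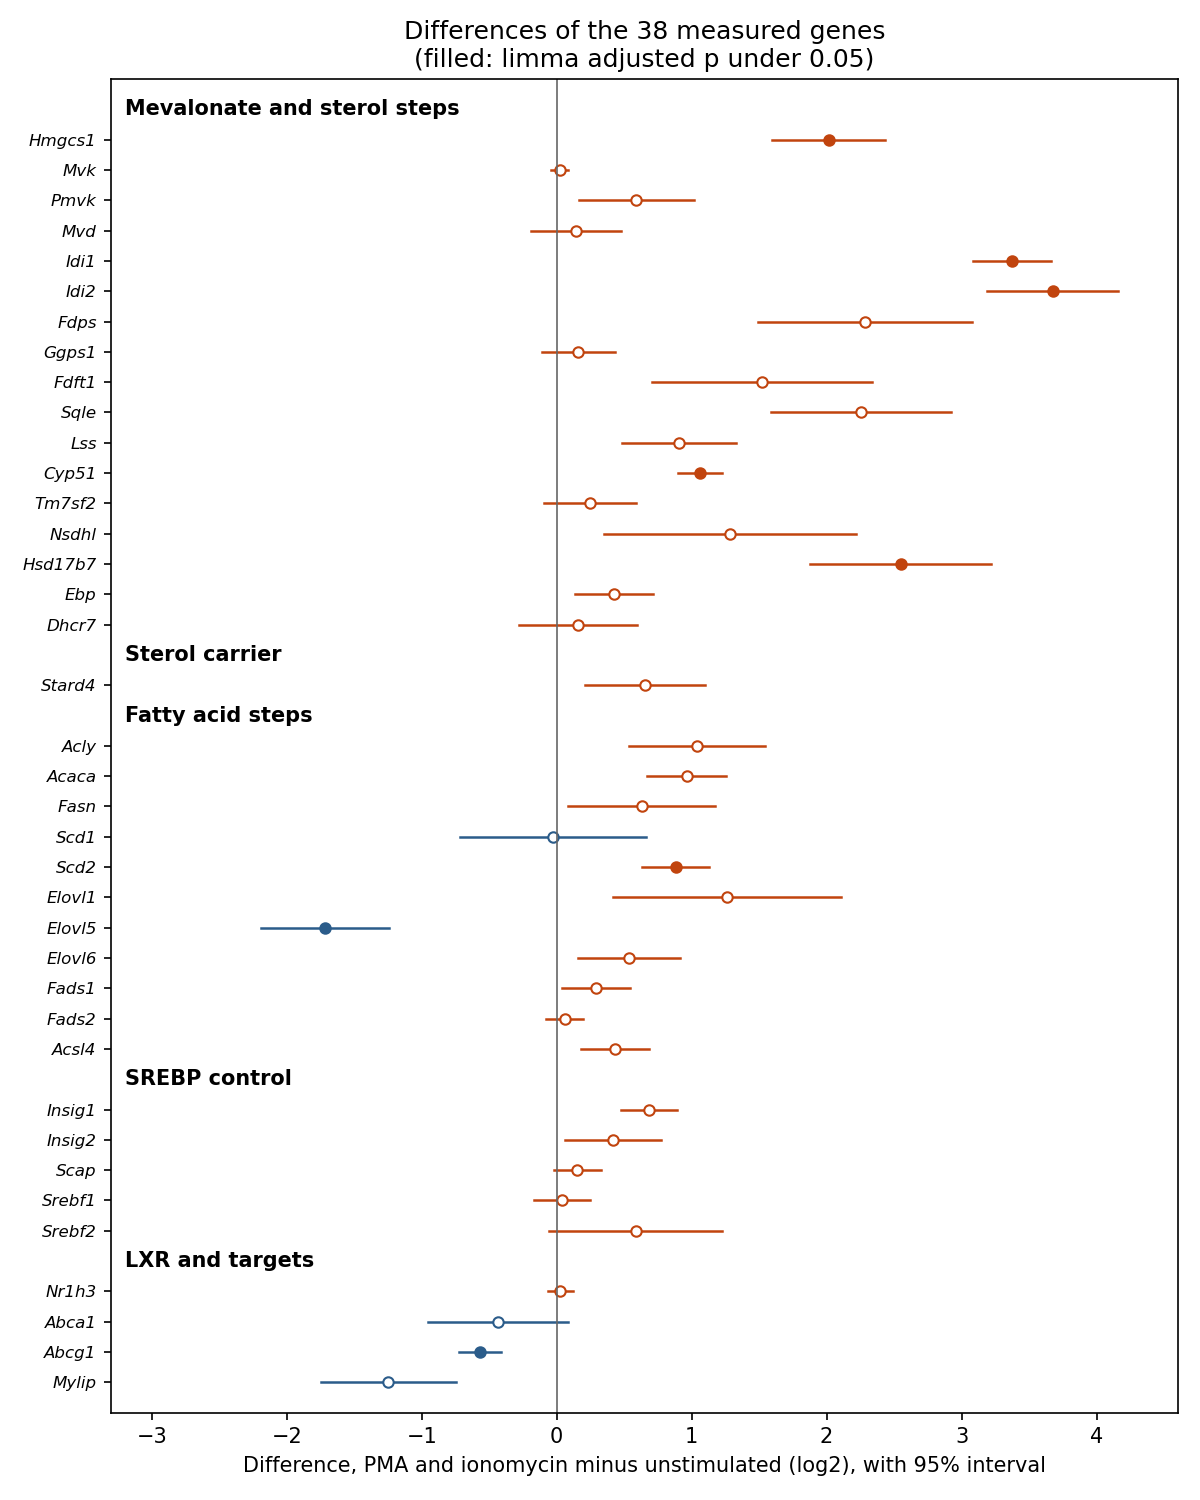
Difference between PMA and ionomycin and unstimulated arrays on the log2 scale for the 38 measured genes by role, with 95% intervals of the limma fit; filled points passed the adjusted p of 0.05. The largest positive differences are those of Idi2 (3.68) and Idi1 (3.37), and the largest negative one is that of Elovl5 (-1.72).

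The 9 genes with the smallest differences were exactly the 9 whose value was the same, to 5 decimals, on 2 or more arrays. They were Mvk, Mvd, Ggps1, Dhcr7, Scd1, Fads2, Scap, Srebf1 and Nr1h3, and their differences reached at most 0.16 in size. The smallest difference among the other 29 was that of Tm7sf2 (0.25). Over all genes, a repeated value was found in 86.5% of those that differed by no more than 0.16 on the log2 scale and in 23.8% of the rest. The part of these repeated values in the small differences was not tested.

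Other genes of these pathways were listed as well, and 1 of them was called. Over all genes 0.737% were called higher and 0.963% lower. In the list of further sterol and isoprenoid genes none of 11 was called, and the largest difference was that of Msmo1, the sterol methyl oxidase gene that acts after Cyp51. It read 9.26 and 9.32 on the stimulated arrays and 6.25, 6.72 and 7.18 on the unstimulated arrays (2.57 ± 0.31 SE, adjusted p = 0.0613), while Coq2, of ubiquinone synthesis, had the lowest (-0.22 ± 0.13, adjusted p = 0.472). Of 21 further fatty acid genes 1 rose, Slc25a1, which codes for the carrier that brings citrate out of mitochondria for Acly. It read 7.48 and 7.64 on the stimulated arrays, against 6.81, 6.86 and 6.74 on the unstimulated arrays (0.76 ± 0.07 SE, adjusted p = 0.0456). The acyl-CoA synthetase gene Acsl5 (0.92 ± 0.20, adjusted p = 0.122) and the phosphatidate phosphatase gene Lpin2 (-0.56 ± 0.12, adjusted p = 0.120) lay at the ends of that list. None of the 8 further genes around SREBP processing was called, with Erlin2 (0.86 ± 0.10, adjusted p = 0.0582) highest and Sirt1 (-0.79 ± 0.14, adjusted p = 0.0932) lowest. Of 17 genes of sterol handling none was called, and the known LXR targets Lpcat3 and Smpdl3a lay at opposite ends. Lpcat3 differed by 1.15 ± 0.19 (adjusted p = 0.0891), and Smpdl3a read 6.05 and 5.84 on the stimulated arrays and 7.94, 8.57 and 7.86 on the unstimulated arrays (-2.18 ± 0.27, adjusted p = 0.0638). The medians of these 4 lists were 0.44, 0.13, 0.02 and 0.09, and 1 of 11, 0 of 21, 0 of 8 and 1 of 17 genes differed by 2-fold or more upwards, against 2.23% of all genes.

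Within the groups, the sterol genes varied mostly in the unstimulated cells. Unstimulated array 1 had the lowest of the 3 unstimulated values in 11 of the 14 sterol genes whose values were all different there, against 39.3% of all such genes. Measured against unstimulated arrays 1, 2 and 3 alone, the median difference of the 17 sterol genes was 1.13, 1.03 and 0.97. The summed signal of the 17 sterol genes, on the linear scale, was 5253 and 5242 on stimulated arrays 1 and 2, against 1544, 1873 and 1955 on the unstimulated arrays. The stimulated arrays differed from each other by far less than the groups did.

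Other measured properties also moved with the groups. All 8 endothelial markers were measured and none was called, while 7 had groups that did not overlap downwards, against 14% of all genes, with a summed signal of 433 to 497 on the stimulated arrays and 619 to 2153 on the unstimulated arrays, lowest on unstimulated array 3. Cdh5, an endothelial adhesion gene, read 5.59 and 6.19 on the stimulated arrays and 9.71, 9.06 and 7.12 on the unstimulated arrays. The neutrophil gene S100a9 read 4.97 and 5.09 on the stimulated arrays and 9.49, 8.15 and 6.91 on the unstimulated ones. Its list was mixed: of 7 neutrophil and monocyte markers, 3 had groups that did not overlap downwards and 1, Ly6g, upwards (difference 0.298). Camp differed by 0.0349, and Mpo had the same value on every array. Sums for the other lists were 780 to 878 on stimulated and 1978 to 2486 on unstimulated arrays for 7 neutrophil and monocyte markers, of which Ccr2 made up 54.9% to 86.7%. They were 1201 to 1425 and 1446 to 1779 for 11 alveolar macrophage markers, of which Pparg made up 52% to 66.7%. The 11 alveolar type II markers summed to 521 to 523 and 535 to 837, of which Sftpc made up 5.15% to 40.2%. The 8 fibroblast markers summed to 339 to 346 and 371 to 639, of which Dcn made up 8.42% to 45.6%. The shares of Sftpc and Dcn were highest on unstimulated array 1. For 6 B cell markers they were 191 to 197 and 199 to 285, and for 7 T cell markers 1151 to 1485 and 1654 to 2727, of which Cd3g made up 55.3% to 73%. Without these brightest genes the sums were 177 to 182 on stimulated and 288 to 1121 on unstimulated arrays for neutrophils and monocytes, 400 to 504 and 533 to 854 for alveolar macrophages, and 462 to 609 and 446 to 1219 for T cells. In the same way they were 476 to 494 and 475 to 501 for alveolar type II cells, and 311 to 313 and 318 to 347 for fibroblasts. The part of these cells in the results was not tested. No marker of these lists was called, against 0.737% of all genes called higher and 0.963% lower, and RMA values have no true zero. Against unstimulated array 3 alone, which had the lowest endothelial sum of the unstimulated arrays, the medians were 0.97 for sterol genes, 0.50 for fatty acid genes, 0.29 for SREBP control and -0.35 for LXR genes.

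**Figure D4:**
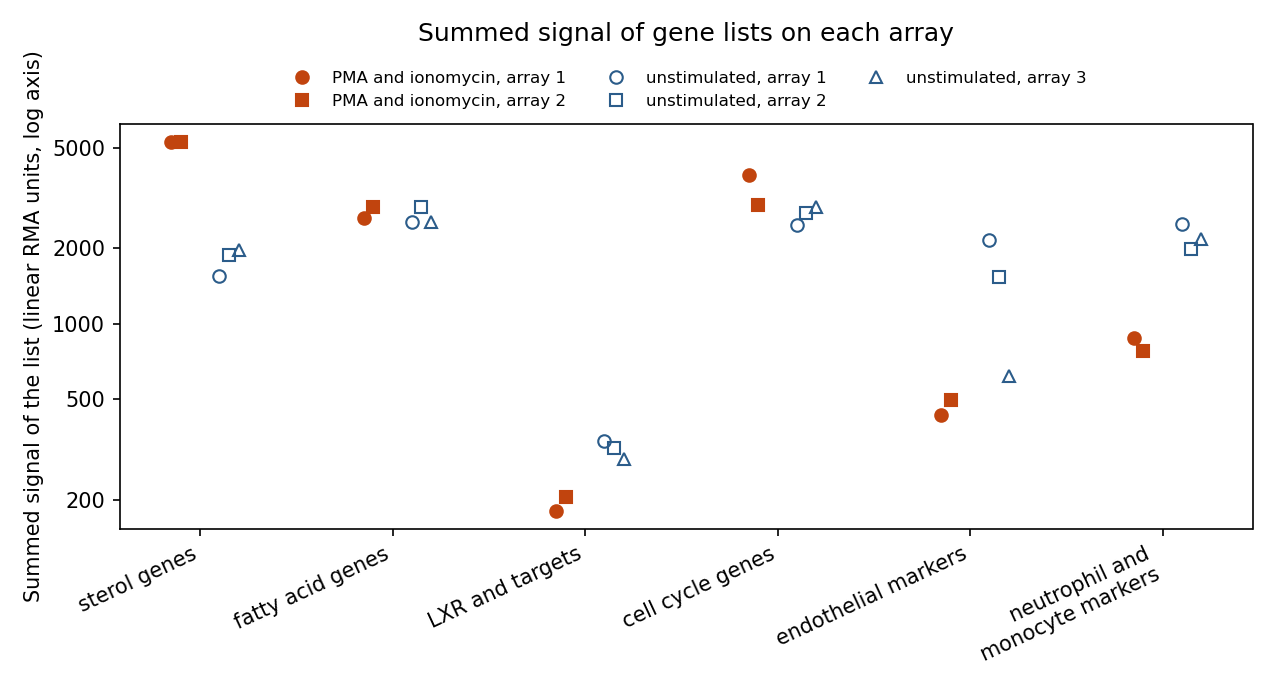
Summed signal of gene lists on each array, in linear RMA units on a log axis, for 2 PMA and ionomycin arrays (filled) and 3 unstimulated arrays (open). The sterol sums are 5253 and 5242 on the stimulated arrays, while the cell cycle sums are 3882 and 2968 there and the endothelial sums vary among unstimulated arrays.

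All 11 measured cell cycle genes had a positive difference, with a median of 0.57, against 10534 positive differences among all 19938 genes. None was called, against 0.737% of all genes called higher and 0.963% lower. The groups did not overlap upwards for 6, against 18.6% of all genes. They summed to 3882 and 2968 on stimulated arrays 1 and 2, against 2472, 2748 and 2912 on the unstimulated arrays. Pcna, the gene of a replication clamp, made up 46.9% to 62.2% of these sums. Without it they were 2062 and 1382 on stimulated arrays 1 and 2, against 933, 1195 and 1325 on the unstimulated arrays. The part of cell division in the results was not tested.

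Of 13 measured marker genes of the sorted cells 5 fell, against 0.963% of all genes, and none rose, against 0.737%. The differences of the 5 were -3.23 for the cytokine receptor gene Il17rb, -2.86 for Kit, -0.81 and -0.78 for the transcription factor genes Rora and Id2, and -0.77 for Il7r, the gene of the gate's CD127. Kit, the gene of c-Kit, read 7.12 and 6.84 on the stimulated arrays and 9.88, 9.97 and 9.69 on the unstimulated arrays, against a median of 5.64 over all probe sets. Among the markers that did not pass, Thy1 differed by -1.34, Klrg1 by -1.27 and the cytokine gene Il13 by 2.41. Gata3, the main transcription factor of these cells, read 10.18 and 10.22 on the stimulated arrays and 10.76, 10.82 and 10.55 on the unstimulated arrays, and Il2ra, the gene of CD25, lay between 10.65 and 10.91. Xist, the RNA of the inactive X chromosome, read 4.16 and 4.11 on the stimulated arrays and 9.09, 10.20 and 9.66 on the unstimulated arrays. The labels give no sex, so a difference in the sex of the mice cannot be told apart from the treatment, also for the X-linked genes Ebp, Nsdhl and Acsl4.

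The calls rest on few arrays. Each of the 8 called genes lost its call without unstimulated array 1 and also without unstimulated array 2, with the same direction throughout. All 8 calls were also lost with the replicate number as a block, a fit that leaves out unstimulated array 3, which has no stimulated partner. Without either stimulated array 6 of the 8 lost theirs and Idi1 and Idi2 stayed called, and without unstimulated array 3, 7 of the 8 did and Cyp51 stayed called, joined by Sqle. Centring each array on its median called 8 sterol genes and 3 fatty acid genes higher, and quantile normalization called 9 and 3, with 2 LXR genes lower under each. Over all genes 43.4% of calls were upward, against 55.6% after median centring and 53.1% after quantile normalization.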

How the data were processed

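The authors deposited log2 values made with RMA, per the submitters' processing notes. The table holds 35556 probe sets on 5 arrays, each hybridised in 1 colour with biotinylated cRNA made from 6 micrograms of total RNA, per the labels' protocols. The RMA version, the arrays normalized together and a genome build are not given in the sources used here. No detection calls came with the values, and 5 arrays set the precision. Array medians ran from 5.63 to 5.66.

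Probe sets were named through the platform annotation: 21789 had 1 symbol, 1621 had several and named no gene, and 12146 were not in that table. For 999 genes with several probe sets, the one with the highest mean over all arrays was used. Groups and replicate numbers came from sample titles. All 19938 genes were fitted without a filter on dim genes by lmFit and eBayes (limma 3.58.1, R 4.3.3), and a gene was called at a Benjamini-Hochberg adjusted p under 0.05. Residual degrees of freedom were 3, and those of the prior 0.649. A permutation test of 2 against 3 arrays cannot go below p = 0.1 and was not used. Differences are PMA and ionomycin minus unstimulated.

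The members and lists were chosen with earlier results of these data known. All members could be named, and from the other pathway lists the called genes and the largest difference in each direction. Lists are described by counts and medians without a test. Motifs were searched with Python 3.11.15, and the fit was tested on simulated data.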

Additional observations from a re-analysis of the deposited data

How the results depend on the processing

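The results were recomputed with other variance priors, array weights, filters on dim genes, probe set summaries, normalizations, thresholds, a replicate block and without each array; a comparison with unstimulated array 3 alone, and a fit without genes that share a value between arrays, were chosen after seeing the data. A lone array in a group is assumed to vary like the other group. The direction of each of the 8 called genes was kept in every alternative that tested it, which was fixed in advance where groups do not overlap. The counts moved far more than the differences, and the cause was not tested.

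The 5 sterol genes called higher became 8 at an adjusted p under 0.1, among genes above the median and after median centring, 9 after quantile normalization and 12 without shared values (of fewer genes tested), and 3 with robust variances. Fatty acid genes called higher (1) became 2 with array weights and with either filter on dim genes, 3 at an adjusted p under 0.1 and after either normalization, and 7 without shared values. In SREBP control, 1 gene (Insig1) was called with array weights, either filter, either normalization, an adjusted p under 0.1 and no shared values, against 0. LXR genes called lower (1) became 2 at an adjusted p under 0.1, among genes above the median, after either normalization and without shared values. Over all genes, a shared value was found in 86.5% of those that differed by no more than 0.16 and in 23.8% of the rest. The fit without shared values therefore favours genes with larger differences. Its higher counts, for these lists and over all genes, are not a separate test. Robust variances called 0 fatty acid genes in either direction and 0 LXR genes. At an adjusted p under 0.01, with the replicate block (fitted on the 4 arrays numbered 1 or 2) and against unstimulated array 3 alone, all these counts were 0, as were those over all genes.

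Over all genes, 147 higher and 192 lower calls became 755 and 695 at an adjusted p under 0.1, 317 and 351 above the lower quartile, 824 and 716 above the median, 660 and 526 after median centring, 825 and 729 after quantile normalization, 1548 and 1161 without shared values, and 45 and 66 with robust variances. Leaving out 1 array gave 0 to 361 higher and 0 to 413 lower over all genes, 0 to 2 sterol genes higher, and 0 fatty acid genes in either direction, 0 SREBP control genes and 0 LXR genes. Without unstimulated array 2 limma called 0 genes, with 3024 at an unadjusted p under 0.05.

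The sterol median was 1.06, and 1.01 to 1.11 without single arrays. It became 1.52 without shared values, a fit that leaves out the 4 sterol genes with the smallest differences, so the direction of this change was fixed in advance. The LXR median of -0.50 became -0.91 among genes above the median, a filter that left 2 of the 4 LXR genes. The median of all genes moved to 0.0229 among genes above the median, 0.0211 after median centring and 0.0765 without shared values. Scd1 (-0.03) ran from -0.198 to 0.154 without single arrays, reversed without unstimulated array 2, and was 0.31 against unstimulated array 3 alone. Srebf1 (0.04) ran from -0.0631 to 0.146 without single arrays and reversed without stimulated array 2. Between samples of the same replicate number, deviations from group means correlated over genes at -0.14 (arrays numbered 1) and -0.06 (arrays numbered 2). With 2 stimulated arrays, the deviations of array 1 are those of array 2 with the sign reversed. These values therefore cannot decide whether the numbers pair the samples.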
